A study of Mus musculus with 28 samples.

Results

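The fatty acid oxidation genes of these kidney samples are 33 genes for the uptake, activation and breakdown of fatty acids, 3 of them regulators. A gene was measured by the probeset that carries its symbol alone, and by the brightest one where there were several. By this rule 31 of the 33 genes were measured, out of 19272 genes in all, and all 31 were above the dim range in enough arrays to be tested, as were 14346 genes in all. Acsl1 and Cpt1a were not analysed here. Hadhb and Ppargc1a each had 2 probesets, and each other member had 1.

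The study sorted dendritic cells from mouse kidney and measured their amplified RNA on 28 Affymetrix arrays. Healthy kidneys of C57BL/6 mice and of BALB/c mice were split into cortex and medulla, with 4 arrays in each of these 4 groups. Kidney allografts were taken on day 3 after transplantation, and their cells were sorted into donor cells, labelled BALB/c and CD45.2, and host cells, labelled C57BL/6 and CD45.1, again from cortex and from medulla, with 3 arrays in each of these 4 groups. All cells were gated on CD45, CD11c and MHC class II after the tissue had been digested with collagenase and DNase. The labels give no age or sex. The labels number the mice: cortex and medulla of a number come from 1 animal, and the donor and host cells of a number from 1 graft. Replicate numbers below follow the labels, so that replicate 1 of the graft groups is the same graft in all 4 of them.

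Fatty acids are burned in mitochondria and, where they are very long or branched, are first shortened in peroxisomes. They are taken up and joined to coenzyme A, passed into mitochondria as carnitine esters, and cut in repeated rounds of dehydrogenation, hydration, dehydrogenation and thiolysis, and the electrons of the first dehydrogenation pass through the electron transfer flavoproteins to the respiratory chain. In the kidney the proximal tubule of the cortex and outer stripe is known to rely on this pathway, and the nuclear receptor Ppara with the coactivator Ppargc1a drives many of its genes. Medium-chain acyl-CoA synthetases of the Acsm family are known as genes of the proximal tubule and the liver, while the enzymes of the mitochondrial spiral are present in most cells that respire.

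Values are log2 array signal, so a difference of 1 is a doubling of signal, and a level of 1 probeset cannot be set against that of another. Array medians lay between 7.60 and 7.88. The array least like its group was BALB/c medulla replicate 1, which correlated with its group by 0.766 on average, while this value was 0.832 to 0.947 for the other arrays. The 13 leukocyte and sort markers had a mean level of 12.24 to 12.38 in the 8 arrays of healthy C57BL/6 kidney and 11.63 to 12.11 in those of healthy BALB/c kidney. In donor cells it was 9.68 to 11.54, in host cortex 10.05 to 11.91 and in host medulla 8.63 to 9.56, so the host medulla arrays lay below all others. Conventional dendritic cell markers, measured for 10 genes, had group means of 8.71 to 10.02 in health and 7.70 to 8.91 in grafts, and resident macrophage markers, measured for 9 genes, 11.26 to 11.48 in health, 10.61 and 10.81 in donor cells and 7.89 and 8.01 in host cells. Ptprc, the gene of CD45, had a mean of 12.79 in C57BL/6 medulla and 9.67 in host medulla. Markers of kidney epithelium were present in every group and are given beside the results they move with. In sorted bulk samples, fewer cells of a type and less RNA per cell cannot be told apart.

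The promoters printed here were chosen because their genes carry the main regional result: Acsm2, Acsm5, Pecr and Slc27a2 were lower in graft medulla than in graft cortex, and Hadhb, a gene of the mitochondrial spiral, was not called. Each line holds the 250 bases upstream of the gene's first listed start, 5′ to 3′ on the gene's strand, from RefSeq on build GRCm38.p6, with CG dinucleotides in capitals. The windows are chr7:119554090-119554339 on the plus strand for Acsm2, chr7:119526015-119526264 on the plus strand for Acsm5, chr1:72284322-72284571 on the minus strand for Pecr, chr2:126552774-126553023 on the plus strand for Slc27a2 and chr5:30155003-30155252 on the plus strand for Hadhb.
Acsm2: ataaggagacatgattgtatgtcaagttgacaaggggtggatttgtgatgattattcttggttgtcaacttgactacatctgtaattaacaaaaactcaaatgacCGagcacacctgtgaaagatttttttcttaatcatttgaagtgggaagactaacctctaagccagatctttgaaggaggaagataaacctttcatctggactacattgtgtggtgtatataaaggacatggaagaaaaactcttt
Acsm5: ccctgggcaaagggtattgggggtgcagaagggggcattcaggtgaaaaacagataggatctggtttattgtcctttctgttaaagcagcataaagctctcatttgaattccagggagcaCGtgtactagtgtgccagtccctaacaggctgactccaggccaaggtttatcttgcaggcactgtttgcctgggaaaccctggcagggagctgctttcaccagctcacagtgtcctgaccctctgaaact
Pecr: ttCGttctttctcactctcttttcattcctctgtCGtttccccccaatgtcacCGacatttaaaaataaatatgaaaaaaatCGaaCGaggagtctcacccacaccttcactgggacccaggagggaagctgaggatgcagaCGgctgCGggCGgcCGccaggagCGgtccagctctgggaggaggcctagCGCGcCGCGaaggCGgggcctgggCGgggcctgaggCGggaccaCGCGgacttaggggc
Slc27a2: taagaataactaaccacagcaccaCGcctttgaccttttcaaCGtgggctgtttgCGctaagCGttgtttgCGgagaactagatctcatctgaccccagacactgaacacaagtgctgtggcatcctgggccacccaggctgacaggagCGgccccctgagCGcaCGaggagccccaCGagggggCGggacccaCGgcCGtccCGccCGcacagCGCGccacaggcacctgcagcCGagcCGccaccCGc
Hadhb: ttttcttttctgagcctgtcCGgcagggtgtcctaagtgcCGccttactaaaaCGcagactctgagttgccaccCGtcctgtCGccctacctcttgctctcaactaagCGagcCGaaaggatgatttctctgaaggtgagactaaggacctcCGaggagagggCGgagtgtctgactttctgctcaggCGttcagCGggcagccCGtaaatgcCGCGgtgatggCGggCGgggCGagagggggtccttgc
CG dinucleotides are sparse in Acsm2 and Acsm5, with 1 each, and frequent in the other windows, with 19 in Pecr, 19 in Slc27a2 and 17 in Hadhb. A window was found for 28 of the 31 members, all but Crat, Acaa2 and Decr1. Acsm1, Acsm2 and Acsm5 are neighbours on chromosome 7, in the order Acsm5, Acsm2, Acsm1, and each has 1 CG in its first window. Of the 32851 windows of the table, 18.8% have 1 or none. Acsm3 lies nearby on the same chromosome but not next to them, and has 5. Its window starts at base 119760673, that of Acsm1 at 119617562. The 8 members that fell in graft medulla in donor or host cells had a median of 10 CG in the first window (1 to 27), the 20 others with a window 11.5 (2 to 25), and all windows 6. Both sets of members thus spanned nearly the same range. Hadha and Hadhb, the alpha and beta subunits of the trifunctional protein, are read away from each other, with starts 272 bases apart and windows that share 228 bases. The response element of the PPAR receptors, searched as AGGTCANAGGTCA on both strands of the whole 300-base windows, lay in none of the 30 member windows and in 0.0396% of all windows. The looser form AGGNCANAGGNCA, which includes the first, also lay in none of them and in 0.381% of all.

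**Figure D1:**
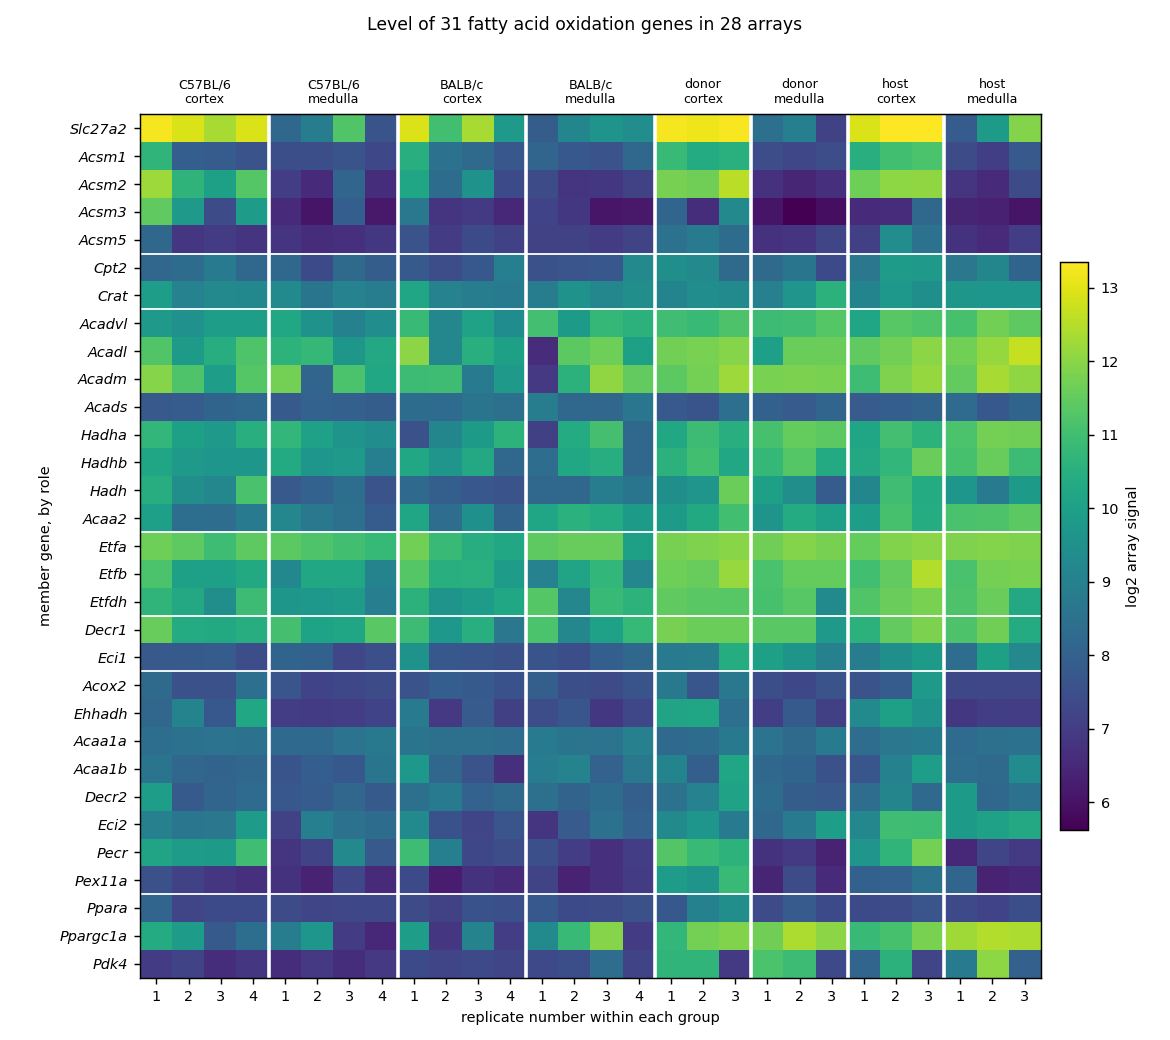
Log2 array signal of the 31 measured members (rows, ordered by role and separated by lines) in each of the 28 arrays (columns, grouped by the 8 groups, numbered by replicate), with colour for level. Acsm1, Acsm2 and Pecr are dark in graft medulla and bright in graft cortex, Slc27a2 is so except for host medulla replicates 2 and 3, at 9.84 and 11.91, and the rows of the mitochondrial spiral do not show this step.

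The first question is how the genes differ between medulla and cortex. In grafts, genes of fatty acid uptake and activation and part of the peroxisomal genes fell in the medulla, in donor and in host cells, while no gene of the mitochondrial spiral passed the test in either by limma, nor had an unadjusted p under 0.05. In donor cells 8 of the 31 members were lower in medulla and none higher; of all genes tested, 1.92% were called lower and 2.54% called in all. In host cells 6 members were lower and none higher, against 2.43% of all genes called lower and 4.29% called in all. The median difference over the members was -0.82 in donor cells and -0.18 in host cells, against 0.11 and 0.10 over all genes tested. All tests are by limma over all 28 arrays, with p-values adjusted by Benjamini and Hochberg over all genes tested and a threshold of 0.05. When the mouse number entered as a fixed replicate block, with only the regions compared in the fit, 3 members stayed called in donor cells (Acsm1, Acsm2 and Pecr) and 3 in host cells (Acsm1, Acsm2 and Ehhadh). Without donor cortex replicate 2, or without donor medulla replicate 1, 5 members were called in donor cells. A strict filter tested 26 members, not Acsm5, Pex11a or Ppara, and the other 5 donor calls stayed.

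**Figure D2:**
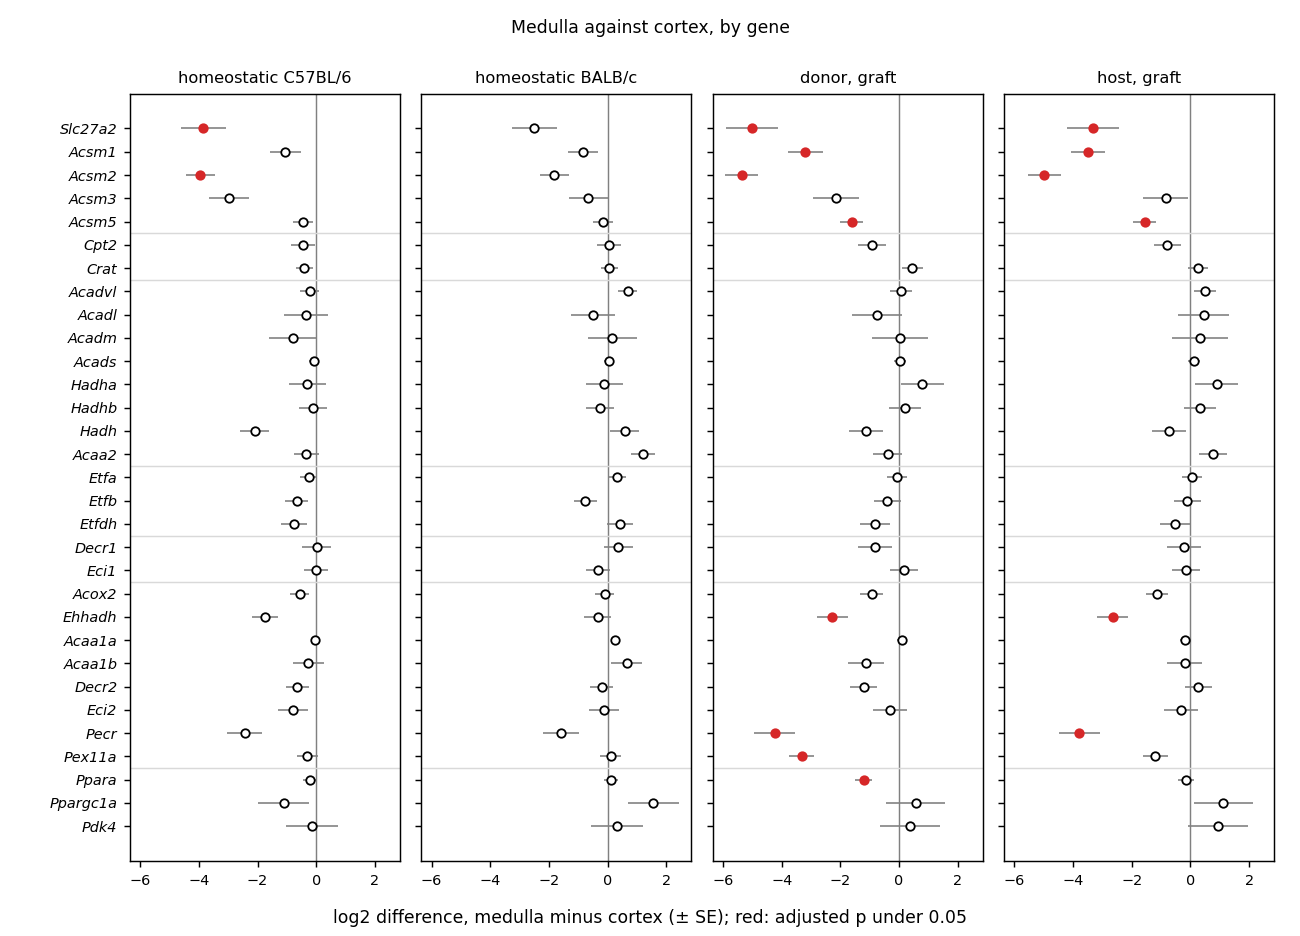
Log2 difference of medulla minus cortex (x axis, point, with bars of 1 SE) of each member (y axis) in healthy C57BL/6, healthy BALB/c, donor and host cells; red points have an adjusted p under 0.05. The red points lie left of zero in uptake, peroxisomal and regulator genes, and no point of the mitochondrial spiral is red, Hadh in C57BL/6 cells at -2.10 included.

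Among the genes of uptake and activation, Acsm2, a medium-chain acyl-CoA synthetase, measured 11.75, 11.66 and 12.55 in the 3 donor cortex arrays and 6.71, 6.44 and 6.70 in donor medulla. In host cells it measured 11.65, 12.04 and 12.08 in cortex and 6.81, 6.56 and 7.42 in medulla. The regions do not overlap in either, and every graft showed the lower medulla. All 6 graft medulla values of Acsm2 lie below the 40th percentile of their own arrays, near background, so the size of the difference is limited by the dim side. The log2 difference was -5.37 ± 0.56 (SE) in donor cells (limma adjusted p = 3.03e-06) and -4.99 ± 0.56 in host cells (limma adjusted p = 5.12e-06). Acsm1, its neighbour, stood at 10.83, 10.39 and 10.52 in donor cortex and at 7.43, 7.26 and 7.45 in donor medulla. Host cortex gave 10.50, 11.02 and 11.17 for it and host medulla 7.40, 7.04 and 7.76. Here too the regions do not overlap, and the differences were -3.20 ± 0.59 (limma adjusted p = 0.00232) and -3.49 ± 0.59 (limma adjusted p = 0.000651).

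Slc27a2, a fatty acid transport protein that also activates very long chains, was nearly the same in the 3 donor cortex arrays, at 13.25, 13.16 and 13.26. In donor medulla it fell to 8.48, 8.97 and 7.15, a difference of -5.03 ± 0.88 (SE, limma adjusted p = 0.00128; 0.0564 with the mouse as a replicate block). Host medulla spread far more, at 7.85, 9.84 and 11.91 against 12.91, 13.34 and 13.35 in host cortex. The regions still do not overlap, and the difference was -3.33 ± 0.88 (limma adjusted p = 0.0293; 0.279 with the block). Leaving out any 1 of 5 of the 6 host arrays, all but medulla replicate 3, ended that call, as did a fit of the groups compared alone, with adjusted p-values from 0.00435 to 0.286 over all alternatives. Acsm5 measured 8.50, 8.77 and 8.35 in donor cortex and 6.73, 6.82 and 7.23 in donor medulla, a difference of -1.61 ± 0.39 (limma adjusted p = 0.0212; 0.15 with the block). Its host values were 7.09, 9.42 and 8.49 in cortex and 6.74, 6.56 and 7.03 in medulla, with host cortex replicate 1 close to the medulla arrays, and the difference was -1.56 ± 0.39 (limma adjusted p = 0.0199; 0.42 with the block). Every graft medulla value of Acsm5, and that of host cortex replicate 1, lies in the dim range of its own array, near background. The size of both differences is thus limited by the dim side, as for Acsm2. All arrays with Acsm5 above that range were cortex arrays, so it was tested through cortex alone. The donor call was lost without replicate 1 or 2 of either region, and the host call without host cortex replicate 2 or 3 or host medulla replicate 1 or 2. Acsm3 did not pass in either, with -2.16 ± 0.78 in donor cells (limma adjusted p = 0.194) and -0.85 ± 0.78 in host cells (limma adjusted p = 0.703).

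Of the carnitine acyltransferases, Cpt2, which frees the acyl group inside the mitochondrion, gave -0.92 ± 0.47 in donor and -0.79 ± 0.47 in host cells, and Crat, which handles acetyl groups, 0.45 ± 0.35 and 0.26 ± 0.35. Neither passed (limma adjusted p of 0.397 or more). Each of the 3 grafts had less Cpt2 in medulla than in cortex in donor and in host cells.

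Of the 8 peroxisomal members, 3 fell in donor medulla and 2 in host medulla. Pecr, a reductase of trans-2-enoyl-CoA, measured 11.29, 10.86 and 10.62 in donor cortex and 6.74, 6.92 and 6.39 in donor medulla. Its host values were 9.64, 10.66 and 11.73 in cortex and 6.50, 7.22 and 6.93 in medulla. The regions are well apart in both, and all 6 medulla values lie below the 40th percentile of their arrays, with differences of -4.24 ± 0.70 (SE, limma adjusted p = 0.000683) and -3.79 ± 0.70 (limma adjusted p = 0.0015; 0.1 with the mouse as a replicate block). Ehhadh, the bifunctional enzyme of peroxisomal beta-oxidation, stood at 10.14, 10.18 and 8.46 in donor cortex and at 7.06, 7.82 and 7.09 in donor medulla. Host cortex gave 9.29, 10.02 and 9.60 and host medulla 6.87, 7.04 and 7.02. Donor cortex replicate 3 was the one cortex array near the medulla range, 5 of the 6 medulla values lie below the 40th percentile of their arrays, and the differences were -2.27 ± 0.52 (limma adjusted p = 0.0159; 0.182 with the block) and -2.65 ± 0.52 (limma adjusted p = 0.00276; still called with the block). The donor call was lost without donor cortex replicate 1 or 2 or donor medulla replicate 1 or 3, and in a fit of the groups compared alone.

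Pex11a, which takes part in the division of peroxisomes, fell in donor medulla and did not pass in host cells. It measured 9.87, 9.63 and 10.85 in donor cortex and 6.40, 7.42 and 6.55 in donor medulla, a difference of -3.32 ± 0.41 (SE, limma adjusted p = 2.55e-05; 0.138 with the block). Host cortex gave 8.01, 8.04 and 8.52 and host medulla 8.14, 6.35 and 6.50, so that 1 host medulla array lay within the cortex range, with a difference of -1.19 ± 0.41 (limma adjusted p = 0.131). The Pex11a values of donor medulla replicates 1 and 3 and of host medulla replicates 2 and 3 lie below the 40th percentile of their arrays. The size of both differences is thus limited by the dim side. The donor and host regional differences were not tested against each other. Acox2, an oxidase of branched chains and bile acid side chains, had differences of -0.93 ± 0.39 and -1.14 ± 0.39 that did not pass (limma adjusted p = 0.279 and 0.117). The thiolases Acaa1a and Acaa1b, the reductase Decr2 and the isomerase Eci2 ranged from -1.20 to 0.27 over both kinds of cells, and none passed.

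The enzymes of the mitochondrial spiral had no such step. Over its 8 genes the median difference was 0.03 in donor and 0.39 in host cells, and none passed in either direction. Hadha measured 10.25, 10.91 and 10.48 in donor cortex and 11.11, 11.52 and 11.40 in donor medulla, the reverse order of Acsm2 in the same arrays. Its host values were 10.18, 11.05 and 10.61 in cortex and 11.15, 11.73 and 11.67 in medulla. All 3 medulla arrays lay above all 3 cortex arrays in each, and the differences of 0.80 ± 0.74 and 0.90 ± 0.74 (SE) did not pass (limma adjusted p = 0.628 and 0.658). Acadm, the medium-chain acyl-CoA dehydrogenase, stood at 11.39, 11.73 and 12.22 in donor cortex and 11.80, 11.81 and 11.79 in donor medulla, a difference of 0.02 ± 0.96. The other acyl-CoA dehydrogenases, for very long (Acadvl), long (Acadl) and short chains (Acads), had differences from -0.75 to 0.50. Hadh, the dehydrogenase of the next oxidation step, gave -1.13 ± 0.58 and -0.73 ± 0.58, and Acaa2, the thiolase, -0.39 ± 0.48 and 0.77 ± 0.48. The electron transfer genes Etfa, Etfb and Etfdh ranged from -0.82 to 0.07, and Decr1 and Eci1, which handle double bonds of unsaturated chains, from -0.82 to 0.16, with no call. A missed threshold does not show equal levels: the SE of a graft difference ranged from 0.168 to 1.02 over the members.

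In healthy kidney the same comparison gave fewer calls. In C57BL/6 cells 2 of the 31 members were lower in medulla, against 0.146% of all genes called lower and 0.153% called in all, and 30 of the 31 differences were below zero, with a median of -0.45 against 0.02 over all genes. Slc27a2 measured 13.25, 12.90, 12.33 and 12.92 in cortex and 8.22, 8.89, 11.26 and 7.63 in medulla. Acsm2 measured 12.23, 10.64, 10.02 and 11.30 in cortex and 7.02, 6.58, 8.14 and 6.64 in medulla. The regions do not overlap for either gene, and medulla replicate 3 was the highest medulla array for both. The differences were -3.85 ± 0.76 (SE, limma adjusted p = 0.03) and -3.95 ± 0.49 (limma adjusted p = 0.000206). With the mouse as a fixed replicate block neither passed (adjusted p = 0.547 and 0.468). Leaving out single arrays gave 1 to 5 members, with 5 without cortex replicate 3, 4 without medulla replicate 3 and 1 without each of the other 6. In all 6 of those Slc27a2 was lost, and a fit of the groups compared alone called neither gene, while array weights called 6 members.

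Below the threshold in C57BL/6 cells lay Acsm3 at -2.97 ± 0.68 (limma adjusted p = 0.0897), Hadh at -2.10 ± 0.50 (0.127), Pecr at -2.45 ± 0.61 (0.153) and Ehhadh at -1.75 ± 0.45 (0.183). In BALB/c cells 5 members had an unadjusted p under 0.05 by limma, a level at which the share of all genes was not counted. No member passed there, against 0.0697% of all genes called. Slc27a2 was nevertheless lower in every BALB/c medulla array, at 7.90, 9.16, 9.63 and 9.40, than in any cortex array, at 12.95, 11.00, 12.35 and 9.81. Its difference was -2.51 ± 0.76 (limma adjusted p = 0.34). Acsm2 gave -1.81 ± 0.49 (0.208) and Pecr -1.60 ± 0.61 (0.569), each lower in medulla in 4 of 4 mice.

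The regional difference itself was then compared. Between donor and healthy BALB/c cells it differed for 2 members, both more negative in the graft, against 0.397% of all genes called lower and 0.453% in all. In medulla itself donor minus BALB/c was -0.01 ± 0.39 (SE) for Pex11a and -0.44 ± 0.53 for Acsm2, neither called. In cortex it was 3.41 ± 0.39 and 3.11 ± 0.53, both called. For Pex11a the regional difference was -3.32 in donor and 0.10 in BALB/c cells, a change of -3.42 ± 0.55 (SE, limma adjusted p = 0.00237). For Acsm2 it was -5.37 and -1.81, a change of -3.56 ± 0.74 (limma adjusted p = 0.0277). With the mouse as a replicate block the adjusted p-values were 0.0596 and 0.128. Both BALB/c means of Pex11a, 6.71 in cortex and 6.81 in medulla, lie below the lowest 40th percentile of any array, 7.26. Its BALB/c regional difference is thus one between levels near background, where a lower medulla could hardly show. The Acsm2 call was lost without donor cortex replicate 3, any 1 of the 3 donor medulla arrays, BALB/c cortex replicate 2, or BALB/c medulla replicate 1 or 4. It was also lost with a second quantile normalization, with array weights and in a fit of the groups compared alone. Without BALB/c cortex replicate 1, 4 members were called. The same test of host against C57BL/6 cells called no member (limma; 2 had an unadjusted p under 0.05; 0.899% of all genes called), and 1 without C57BL/6 cortex replicate 1 or without host cortex replicate 1. Between BALB/c and C57BL/6 cells it also called none (6 with an unadjusted p under 0.05; 0.0418% of all genes called). These percentages are of adjusted calls, and the share of all genes at an unadjusted p under 0.05 was not counted. In the same donor against BALB/c contrast 4 of 16 proximal tubule markers were called, all lower, among them Cubn (-4.61 ± 0.51) and Lrp2 (-4.37 ± 0.79). In host against C57BL/6 cells 3 were called lower and 1 higher. Of 12 collecting duct markers 1 was higher and 1 lower in the first contrast and 2 were higher in the second. The part of these markers was not tested. These contrasts share the healthy arrays with the comparisons that follow.

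**Figure D3:**
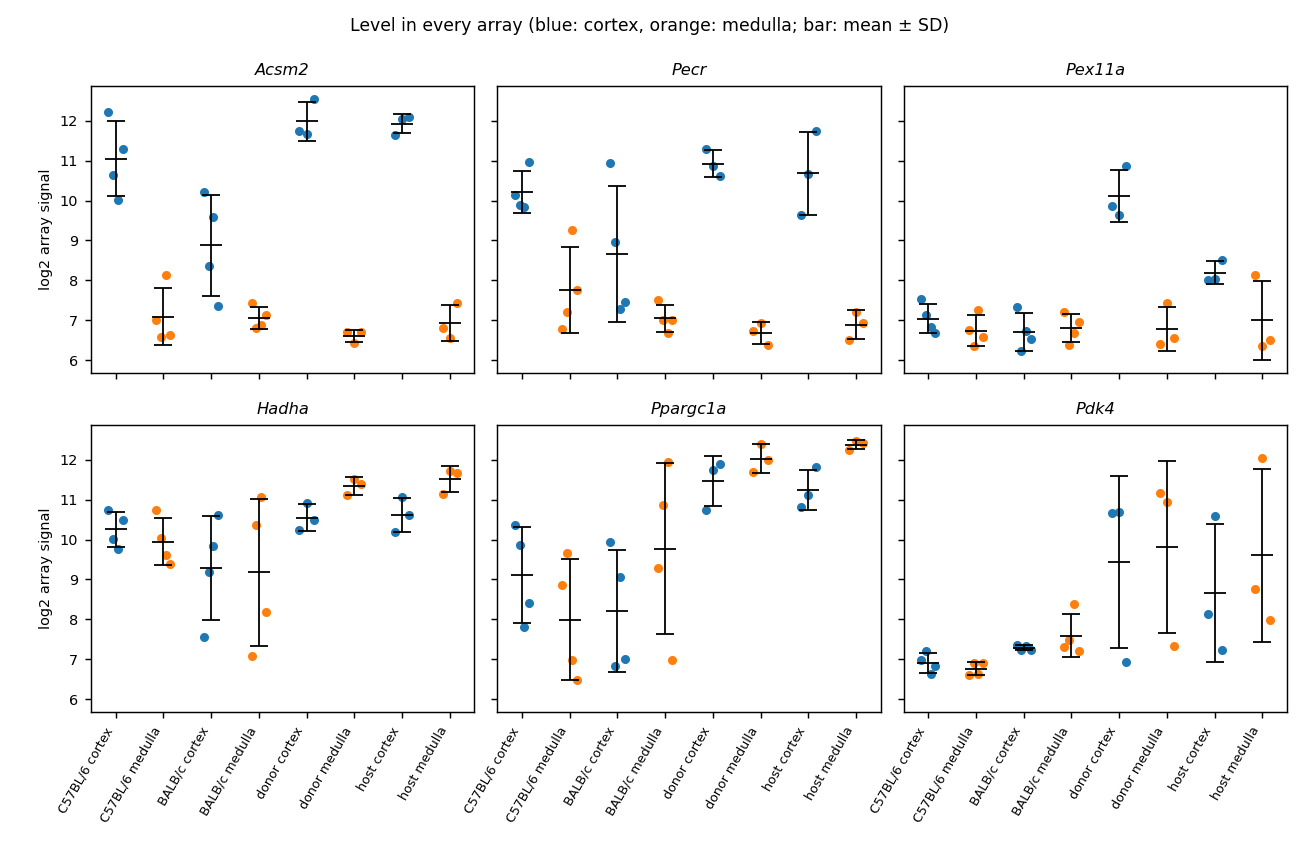
Log2 array signal (y axis) of Acsm2, Pecr, Pex11a, Hadha, Ppargc1a and Pdk4 in every array of the 8 groups (x axis; blue points cortex, orange medulla, bars mean ± SD). In grafts Acsm2 and Pecr are high in cortex and low in medulla, while both overlap between the BALB/c regions. Pex11a lies at 9.63 to 10.85 in donor cortex, above every other array, and Pdk4 is high in only part of the graft arrays.

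Markers of the proximal tubule moved with these members. The 16 measured markers had a mean level of 10.30 to 11.25 in donor cortex and 7.49 to 7.97 in donor medulla, and of 9.96 to 11.22 in host cortex and 7.37 to 7.69 in host medulla. Summed on the linear scale they came to a log2 level of 15.10 to 15.70, 12.32 to 13.10, 14.61 to 15.75 and 12.33 to 12.71 in these 4 groups. Of the 16, 13 were lower in medulla in donor cells, and 13 were lower and 1 higher in host cells. Lrp2 and Cubn, the endocytic receptors megalin and cubilin, had means of 12.47 and 11.19 in donor cortex and of 7.29 and 6.37 in donor medulla. In C57BL/6 cells 2 of the 16 were lower in medulla, and in BALB/c cells no call was made, with a mean level of 8.91 to 10.49 in C57BL/6 cortex and 8.17 to 9.43 in BALB/c cortex. C57BL/6 cortex replicate 1, highest of its group for these markers, was also highest for Slc27a2, Acsm1, Acsm2, Acsm3 and Acsm5. Of the 13 leukocyte and sort markers, 1 was lower in donor medulla and 9 in host medulla. Of 9 thick limb and distal tubule markers, 2 were lower in C57BL/6 and 2 in donor medulla, and 4 were lower and 1 higher in host medulla. The part of these marker lists in the results on the members was not tested.

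**Figure D4:**
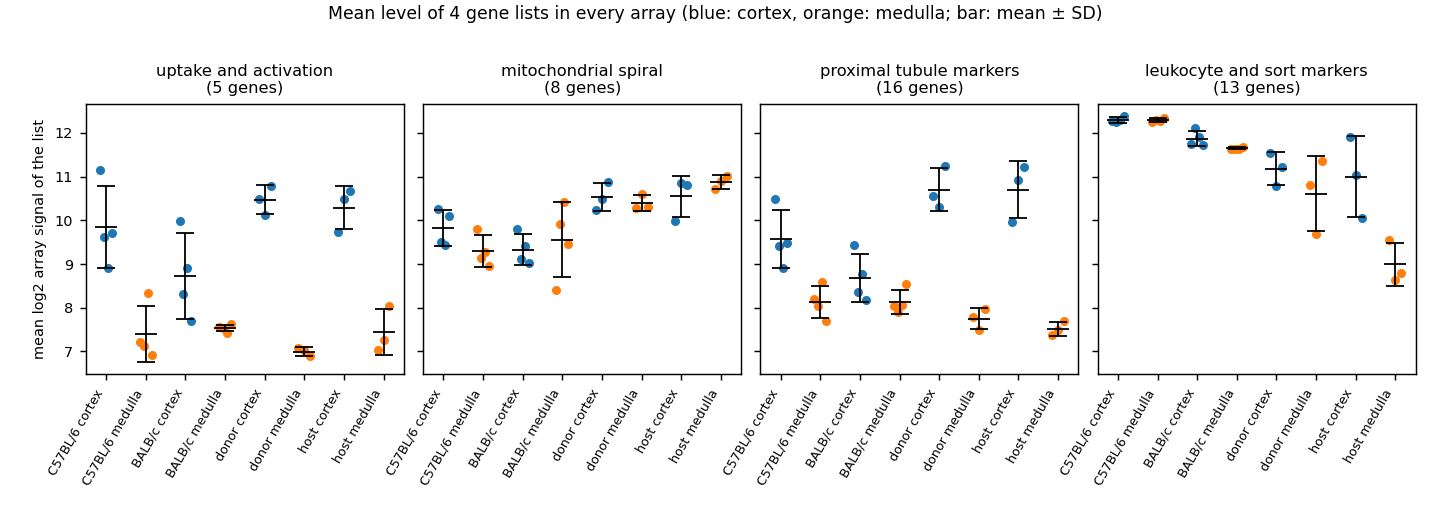
Mean log2 array signal (y axis) of the 5 uptake and activation genes, the 8 genes of the mitochondrial spiral, 16 proximal tubule markers and 13 leukocyte and sort markers in every array of the 8 groups (blue points cortex, orange medulla, bars mean ± SD). The uptake genes and the proximal tubule markers are low in graft medulla, where the markers lie at 7.37 to 7.97, and the spiral is not.

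The next comparison sets graft cells against healthy cells of the labelled strain in the same region. In cortex, 16 of the 31 members were higher in donor cells than in healthy BALB/c cells and none lower; of all genes 7.91% were called higher and 24.0% called in all, most of them lower. The median over the members was 1.31, against -0.13 over all genes, and it was 1.01 after a second quantile normalization and 1.47 with arrays centred on their medians. The called members came from every role except the carnitine acyltransferases: 3 of uptake, 3 of the spiral, all 3 electron transfer genes, both auxiliary enzymes, 3 peroxisomal genes and 2 regulators. The count moved with single arrays: it was 4 without donor cortex replicate 2, 7 without donor cortex replicate 1, 7 without BALB/c cortex replicate 4 and 10 without BALB/c cortex replicate 3. A fit of the groups compared alone called 5, and a second quantile normalization 9.

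Pex11a was higher by 3.41 ± 0.39 (SE, limma adjusted p = 9.48e-06). Its BALB/c cortex arrays measured 7.34, 6.22, 6.74 and 6.54, below the donor cortex arrays given above. All 4 lie below the 40th percentile of their own arrays, so the size of the difference from them is limited in the same way as that of Acsm2. Acsm2 was higher by 3.11 ± 0.53 (limma adjusted p = 0.000516), from 10.20, 8.35, 9.59 and 7.35 in BALB/c cortex. Hadh was higher by 2.35 ± 0.54 (limma adjusted p = 0.00442), with 8.25, 7.97, 7.73 and 7.60 in BALB/c cortex and 9.46, 9.64 and 11.60 in donor cortex. These 3 were called in every alternative that tested them and without any single array. Ppara, too, was called without any single array, and the other 12 calls were lost without donor cortex replicate 2. Of the electron transfer genes, Etfa measured 11.71, 10.87, 10.42 and 10.26 in BALB/c cortex and 11.76, 11.85 and 11.98 in donor cortex. The groups are separate by a narrow margin, at BALB/c replicate 1, and the difference was 1.05 ± 0.32 (limma adjusted p = 0.0209). Etfb (1.24 ± 0.43), Etfdh (1.31 ± 0.48), Decr1 (1.71 ± 0.53) and Eci1 (1.23 ± 0.45) passed with adjusted p-values from 0.0245 to 0.0499.

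Ehhadh (1.93 ± 0.49), Pecr (2.27 ± 0.66), Acsm1 (1.81 ± 0.56), Acsm5 (1.28 ± 0.36), Acadvl (1.14 ± 0.35) and Acaa2 (1.36 ± 0.45) also rose in donor cortex, with limma adjusted p-values from 0.00802 to 0.0313. Acsm1, Ehhadh, Pecr, Acaa2 and Eci1 overlapped between the groups, in each case at BALB/c cortex replicate 1, the highest of its group. Acads, the short-chain dehydrogenase, gave -0.49 ± 0.19 and Acaa1a -0.02 ± 0.16, neither called. Of the 16 proximal tubule markers, 9 were higher in donor cortex than in BALB/c cortex and none lower, and 3 of 9 thick limb and distal tubule markers were higher. Of 12 collecting duct markers 2 were higher and 2 lower. Of the leukocyte and sort markers 2 were lower. Their part in the 16 calls was not tested.

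**Figure D5:**
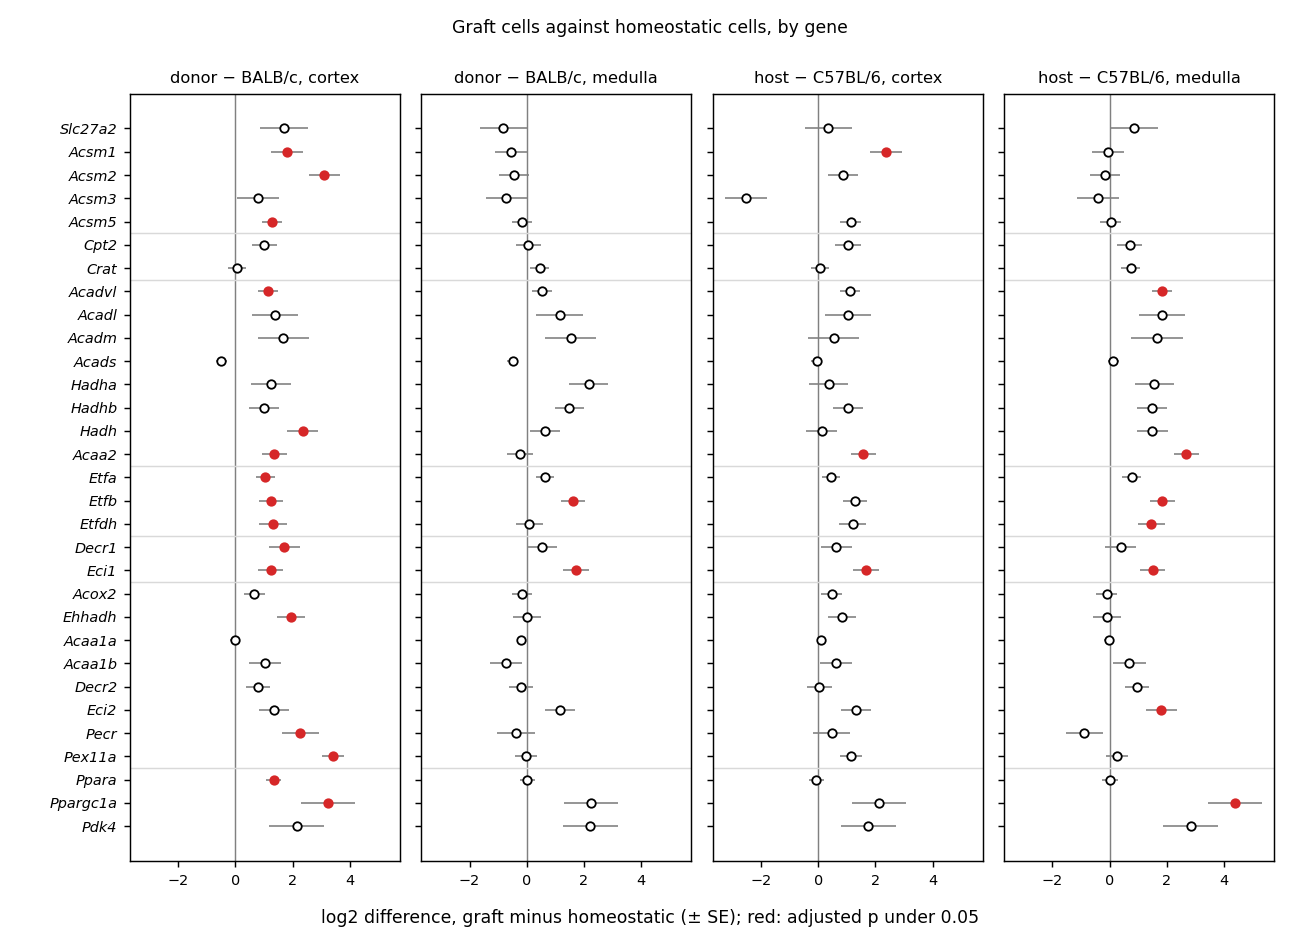
Log2 difference of graft minus healthy cells (x axis, point, with bars of 1 SE) of each member (y axis) for donor against BALB/c and host against C57BL/6 cells, in cortex and in medulla; red points have an adjusted p under 0.05. All red points lie right of zero, 16 of them in donor cortex and 7 in host medulla.

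In medulla, donor cells were compared with healthy BALB/c cells in the same way. Here 2 members were higher and none lower, against 1.73% of all genes called higher and 3.18% in all. Eci1, which shifts double bonds in mitochondria, measured 7.64, 7.46, 7.94 and 8.20 in BALB/c medulla and 10.00, 9.62 and 8.99 in donor medulla. Etfb measured 9.06, 10.12, 10.74 and 9.21, and 11.13, 11.52 and 11.53. Groups do not overlap for either gene, and the differences were 1.73 ± 0.45 (SE, limma adjusted p = 0.0384) and 1.61 ± 0.43 (limma adjusted p = 0.0414). Neither was called without BALB/c medulla replicate 1, the array that stands apart, nor without donor medulla replicate 1, donor medulla replicate 2 or BALB/c medulla replicate 4, nor in a fit of the groups compared alone. Etfb was also lost without donor medulla replicate 3 and Eci1 without BALB/c medulla replicate 2, while 4 members were called without BALB/c medulla replicate 3. Hadha was above every BALB/c array in donor medulla but did not pass (2.17 ± 0.69, limma adjusted p = 0.0807); BALB/c medulla ranged from 7.09 to 11.06 for it. Of 12 collecting duct markers 2 were higher in donor medulla, and 1 leukocyte and sort marker was lower.

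Host cells against healthy C57BL/6 cells gave 3 higher members in cortex, against 2.01% of all genes called higher and 4.14% in all. They were Acsm1 (2.38 ± 0.56 SE, limma adjusted p = 0.0132), Eci1 (1.66 ± 0.45, limma adjusted p = 0.0353) and Acaa2 (1.58 ± 0.45, limma adjusted p = 0.0459). Eci1 measured 7.77, 7.82, 7.86 and 7.45 in C57BL/6 cortex and 8.86, 9.46 and 9.84 in host cortex, and its groups do not overlap. For Acsm1 and Acaa2, C57BL/6 cortex replicate 1 lay within the host range. No member was called without host cortex replicate 2 or without C57BL/6 cortex replicate 4. Without C57BL/6 cortex replicate 3 or without host cortex replicate 3 none of these 3 remained either, and the 1 member called was Acsm3, as lower. Without C57BL/6 cortex replicate 2 Acsm1 alone remained, and 7 members were called without host cortex replicate 1. Array weights called 11, and a second quantile normalization and a fit of the groups compared alone 1 each. Acsm3 gave -2.52 ± 0.73 (limma adjusted p = 0.0523), the one difference of these 31 below -1. In this comparison 4 proximal tubule and 2 collecting duct markers were higher, and 4 leukocyte and sort markers and 8 of 9 resident macrophage markers were lower. Their part in the result was not tested.

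In medulla, 7 members were higher in host than in C57BL/6 cells and none lower; 6.27% of all genes were called higher and 11.5% in all. All 7 belong to the spiral, the electron transfer, isomerase and regulator genes: Acadvl, Acaa2, Etfb, Etfdh, Eci1, Eci2 and Ppargc1a. Acaa2 measured 9.18, 8.71, 8.48 and 7.86 in C57BL/6 medulla and 11.14, 11.18 and 11.41 in host medulla. Acadvl stood at 10.26, 9.60, 9.00 and 9.42 and at 11.11, 11.69 and 11.44. Groups are clearly apart for both genes, and the differences were 2.69 ± 0.45 (SE, limma adjusted p = 0.000214) and 1.84 ± 0.35 (limma adjusted p = 0.000863). Etfb (1.84 ± 0.43), Etfdh (1.46 ± 0.48), Eci1 (1.50 ± 0.45) and Eci2 (1.80 ± 0.54) passed with adjusted p-values from 0.005 to 0.0485. Acadvl, Acaa2, Etfb and Ppargc1a were called in every alternative and without any single array. Without C57BL/6 medulla replicate 4 or without host medulla replicate 2, these 4 alone were called. Each other array of the comparison also ended 1 or 2 of the other calls. Array weights called 13 members and a fit of the groups compared alone 12.

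None of the 5 uptake genes was called in host medulla (limma; none had an unadjusted p under 0.05), and of the 8 peroxisomal genes Eci2 was. Acsm2 gave -0.16 ± 0.53, Acsm5 0.04 ± 0.36, Ehhadh -0.08 ± 0.49 and Pecr -0.88 ± 0.66, none called. All 13 leukocyte and sort markers were lower in host medulla than in C57BL/6 medulla, with a median difference of -3.43. Of the kidney markers, 6 of 12 collecting duct and 3 of 9 thick limb and distal tubule markers were higher and none lower, while of the 16 proximal tubule markers 1 was higher and 2 lower. The part of these markers in the higher spiral genes was not tested.

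The regulators behaved differently from one another. Ppargc1a, the coactivator of mitochondrial biogenesis, measured 8.86, 9.67, 6.98 and 6.48 in C57BL/6 medulla and 12.25, 12.46 and 12.41 in host medulla. In cortex it measured 9.94, 6.83, 9.07 and 7.01 in BALB/c cells and 10.75, 11.75 and 11.89 in donor cells. Its healthy arrays spread widely, with an SD of 1.21 to 2.15 in a group, and its graft arrays less, with an SD of 0.11 to 0.62. The differences were 4.38 ± 0.94 (SE, limma adjusted p = 0.00259) in host medulla and 3.25 ± 0.94 (limma adjusted p = 0.0167) in donor cortex, where the call was lost without donor cortex replicate 2 or BALB/c cortex replicate 4 and in a fit of the groups compared alone. Donor medulla (2.26 ± 0.94, limma adjusted p = 0.169) and host cortex (2.14 ± 0.94, limma adjusted p = 0.285) did not pass. Its second, dimmer probeset had means of 7.01 in C57BL/6 medulla and 11.71 in host medulla, and of 6.75 in BALB/c cortex and 9.76 in donor cortex.

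Ppara, the nuclear receptor, lay between 7.15 and 8.14 in all arrays outside donor cortex. In donor cortex it measured 7.76, 9.02 and 9.43, against 7.38, 7.15, 7.55 and 7.51 in BALB/c cortex, and was higher by 1.34 ± 0.27 (SE, limma adjusted p = 0.00167). Donor medulla gave 7.40, 7.83 and 7.36, lower than donor cortex by a difference of -1.21 ± 0.28 (limma adjusted p = 0.0184; 0.378 with the mouse as a replicate block), with donor cortex replicate 1 within the medulla range. All BALB/c cortex values of Ppara, and those of donor medulla replicates 1 and 3, lie below the 40th percentile of their own arrays. The size of both differences is thus limited by the dim side. The regional call was lost without donor cortex replicate 2 or 3 or donor medulla replicate 1 or 3. Both Ppara calls were lost in a fit of the groups compared alone.

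Pdk4, which shuts pyruvate out of oxidation, passed in no comparison. It measured 10.67, 10.68 and 6.94 in donor cortex and 11.16, 10.93 and 7.33 in donor medulla. In host cells it measured 8.14, 10.59 and 7.24 in cortex and 8.76, 12.05 and 7.99 in medulla. The graft of replicate 3 was the lowest in all 4 groups, at 6.94 to 7.99, and the graft of replicate 2 was at 10.59 to 12.05. The healthy arrays lay between 6.62 and 8.38. The SD within a graft group was 1.73 to 2.16, and the difference of donor from BALB/c cells was 2.14 ± 0.96 in cortex and 2.21 ± 0.96 in medulla (limma adjusted p = 0.104 and 0.185).

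Few members were called between donor and host cells of the same grafts, which does not show equal levels. In cortex 2 members were higher in donor cells and none lower, against 0.369% of all genes called higher and 0.495% in all. They were Pex11a (1.93 ± 0.41 SE, limma adjusted p = 0.0319) and Ppara (1.27 ± 0.28, limma adjusted p = 0.0407). The Pex11a values are given above, and the host cortex mean of Ppara was 7.46. Donor and host cortex do not overlap for either gene. With the mouse as a replicate block the adjusted p-values were 0.613 and 0.704. Leaving out any 1 of the 6 arrays left 1 member or none. A second quantile normalization and a fit of the groups compared alone each left none. The strict filter did not test Pex11a or Ppara and called no other member. In medulla none passed by limma (1 had an unadjusted p under 0.05; 0.592% of all genes called). That one was Acaa2, at 9.63, 10.38 and 9.98 in donor and 11.14, 11.18 and 11.41 in host medulla, a difference of -1.25 ± 0.48 (limma adjusted p = 0.511). The share of all genes at an unadjusted p under 0.05 was not counted. Of the 31 medulla differences 23 lay below zero and 8 above, with a median of -0.20 against -0.01 over all genes. They reached -1.67, for Slc27a2, and their SE ranged from 0.168 to 1.02. Of 9 resident macrophage markers 6 were higher in donor cells in either region, and of 6 tested lymphocyte markers 3 were lower in donor cortex. The 13 leukocyte and sort markers had a mean level of 9.68 to 11.36 in donor medulla and 8.63 to 9.56 in host medulla. The part of these markers in the result was not tested. Donor and host cells differ in labelled strain as well as in origin.

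The strains were therefore compared in healthy kidney. In cortex 3 members were lower in BALB/c than in C57BL/6 cells and none higher, against 1.94% of all genes called lower and 9.91% in all. Hadh measured 10.44, 9.43, 9.21 and 11.13 in C57BL/6 cortex and 8.25, 7.97, 7.73 and 7.60 in BALB/c cortex, without overlap, a difference of -2.17 ± 0.50 (SE, limma adjusted p = 0.0103). Acsm2 (-2.17 ± 0.49, limma adjusted p = 0.00853) and Acsm3 (-2.40 ± 0.68, limma adjusted p = 0.0281) overlapped between the strains. Without BALB/c cortex replicate 1, 6 members were called. Acsm3 was lost without C57BL/6 cortex replicate 1, 2 or 4 or BALB/c cortex replicate 2, 3 or 4, and a fit of the groups compared alone called Hadh only. Of the proximal tubule markers 3 were lower in BALB/c cortex and none higher, and their part in this result was not tested. In medulla 1 member, Acaa2, was higher in BALB/c cells, against 6.48% of all genes called higher and 9.11% in all. It measured 10.19, 10.55, 10.37 and 9.82 there and 9.18, 8.71, 8.48 and 7.86 in C57BL/6 medulla, a difference of 1.67 ± 0.41 (limma adjusted p = 0.0213). The call was lost without BALB/c medulla replicate 1 or without C57BL/6 medulla replicate 3 or 4, and 4 members were called without BALB/c medulla replicate 2, 2 without BALB/c medulla replicate 3 and 2 without C57BL/6 medulla replicate 1. Pex11a and Ppara, the members that separated donor from host cortex, gave -0.33 ± 0.36 and -0.13 ± 0.25 between the strains in cortex, neither called. All BALB/c cortex values of both genes lie below the 40th percentile of their own arrays. The C57BL/6 cortex mean of Pex11a, 7.04, lies below the lowest such percentile of any array, 7.26. Levels this near background limit how far a strain difference could show. The part of strain in the donor and host difference was not tested.

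Over all 15 comparisons 19 members passed at least once and 12 never. The 12 were Cpt2, Crat, Acadl, Acadm, Acads, Hadha, Hadhb, Acox2, Acaa1a, Acaa1b, Decr2 and Pdk4. The share of all genes tested that passed at least once was not counted, so the 19 cannot be set against it. Donor against BALB/c cortex alone called 24.0% of all genes.

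Other genes of the pathway were counted over whole lists. Of 35 tested other oxidation genes, 2 were lower in donor medulla than in donor cortex, the thioesterases Acot4 (-1.69 ± 0.39 SE, limma adjusted p = 0.0153) and Acot12 (-1.95 ± 0.50, limma adjusted p = 0.0369). No gene of the list was called in host cells by limma, where 8 were lower and 2 higher at an unadjusted p under 0.05. The share of all genes at that level was not counted. In graft against healthy cells 10 of the 35 were higher in donor cortex, 1 in donor medulla, 5 in host cortex and 8 in host medulla, and none was lower. Among them were the carnitine transporter Slc22a5 (2.17 ± 0.55 in donor and 2.17 ± 0.55 in host cortex, limma adjusted p = 0.00796 and 0.0238) and Hacl1, an enzyme of peroxisomal alpha-oxidation (1.96 ± 0.44 and 2.03 ± 0.44, limma adjusted p = 0.00382 and 0.00762). Ech1, an isomerase of dienoyl-CoA, was higher in host medulla (2.11 ± 0.53, limma adjusted p = 0.00925).

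Of 15 tested PPAR target and ketone body genes, 5 were lower in donor and 4 in host medulla than in cortex. Cyp4a14, a fatty acid omega-hydroxylase, had means of 11.51 and 6.84 in donor cortex and medulla, 11.11 and 6.88 in host cortex and medulla, and 7.28 and 6.88 in BALB/c and C57BL/6 cortex. Its regional difference changed by -4.67 ± 0.61 (SE) from BALB/c to donor cells and by -4.17 ± 0.61 from C57BL/6 to host cells, both called. Cd36, a fatty acid receptor of macrophages and other cells, went from 11.87 in C57BL/6 medulla to 7.01 in host medulla (-4.86 ± 0.42) and from 10.66 in BALB/c to 7.93 in donor medulla (-2.73 ± 0.42), both called. Fabp3, a fatty acid-binding protein, was higher in host medulla by 4.67 ± 0.83 (limma adjusted p = 0.000416) and Oxct1, which uses ketone bodies, by 2.39 ± 0.48 (limma adjusted p = 0.0013).

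Among 14 tested PPAR family regulators, Hnf4a, a nuclear receptor of proximal tubule and liver, was lower in medulla by -2.15 ± 0.49 (SE) in donor and -2.51 ± 0.49 in host cells. Pparg was lower in grafts than in healthy cells in donor cortex (-1.74 ± 0.33), host cortex (-1.68 ± 0.33) and host medulla (-1.24 ± 0.33), all called. No other gene of that list was called between the regions in grafts. Of 17 tested genes of fatty acid synthesis and storage, 2 were lower in donor and 4 in host medulla than in cortex, and 6 were higher in donor cortex, 4 in host cortex and 2 in host medulla than in healthy cells. Me1, which supplies NADPH for synthesis, had the lowest regional differences of them, at -3.80 ± 0.66 and -2.93 ± 0.66.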

How the data were processed

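Dendritic cells sorted from mouse kidney were measured on 28 Affymetrix arrays after their RNA had been amplified (Nugen Ovation One-Direct), per the labels' protocols. The authors deposited log2 signal per probeset, made by RMA in oligo as the submitters' processing notes name them, with no version given in the sources used here. RMA sets the arrays to a common distribution, so a shift shared by most genes is not seen.

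Of 22549 probesets, 20646 carried 1 gene symbol, 551 several and 1352 none in the platform annotation. A gene was its brightest probeset with 1 symbol, and it was tested when 3 or more arrays had it above their own 40th percentile, as held for 14346 of 19272 genes. limma 3.58.1 in R 4.3.3 fitted 1 mean per group over all 28 arrays, with 20 residual degrees of freedom. There were 12 comparisons of groups and 3 of regional differences, 2-sided, each adjusted by Benjamini and Hochberg over all genes tested, with a threshold of 0.05. The fit was tested on simulated data with known changes. Groups and mouse numbers come from the labels, which call the arrays biological replicates. The number of arrays limits the precision.

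Numbers pair arrays because the labels give both regions, and in grafts donor and host cells, the same mouse number. Deviations from the group means correlated on average by -0.00326 and -0.00611 within mice in healthy C57BL/6 and BALB/c kidney, and by 0.106 to 0.22 in grafts. The alternatives were 10 besides leaving out each array in turn. They were the mouse number as a random or a fixed block, no filter, a strict filter, a second quantile normalization, arrays centred on their medians, array weights, the mean of a gene's probesets, a robust variance trend, and a fit of only the groups compared. The fixed block, too, was fitted to only the groups compared.

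All members could be named, as could up to 4 genes per other list and comparison with the smallest adjusted p among the called, and a few sort and segment markers. Besides the members there were 4 pathway lists (other oxidation genes, PPAR targets and ketone body genes, PPAR family regulators, synthesis and storage) and 9 marker lists. The members and lists were chosen with earlier results of these data known. Promoter windows were taken from RefSeq on GRCm38.p6.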

Additional observations from a re-analysis of the deposited data

Results flagged for a closer look

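In the healthy groups, which hold 4 arrays each, 8 of 124 sets of 4 values of a member held 1 array far from the other 3 by Dixon's test, which chance alone does in about 1 in 20 sets. In C57BL/6 cortex replicate 1, which held 4 of the 8, Acsm1 measured 10.66 against 7.59 to 7.94 in the other 3, Acsm5 8.21 against 6.80 to 6.95, Decr1 11.57 against 10.32 to 10.44, and Ppara 8.14 against 7.22 to 7.37. That array also had the highest mean level of its group for the proximal tubule markers, 10.49 against 8.91 to 9.48. BALB/c medulla replicate 4 held 2, with Cpt2 at 9.25 against 7.52 to 7.70 and Etfa at 10.00 against 11.43 to 11.56. Eci1 measured 9.57 in BALB/c cortex replicate 1 against 7.55 to 7.75, and Ehhadh 7.19 in C57BL/6 medulla replicate 4 against 7.00 to 7.03, a small distance within a tight group.

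The medulla minus cortex difference itself differed between donor cells and healthy BALB/c cells for 2 members by limma's interaction contrast over 14346 genes. The change was -3.56 ± 0.74 (SE) for Acsm2 (adjusted p = 0.0277) and -3.42 ± 0.55 for Pex11a (adjusted p = 0.00237). Both BALB/c means of Pex11a were near background, at 6.71 in cortex and 6.81 in medulla. In that contrast 4 of 16 proximal tubule markers were called too, all lower, and their part was not tested.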

How the results depend on the processing

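Of the 52 member differences called, 15 stayed called under every alternative that tested them, 21 without any single array and 14 in both. No difference called in either setting changed sign. With the mouse number as a fixed replicate block, only the groups compared were in the fit, so the part of the block alone was not tested. In that setting the members called went from 2 to 0 for medulla against cortex in C57BL/6, from 8 to 3 in donor and from 6 to 3 in host cells. They went from 2 to 0 for the regional difference of donor against BALB/c cells and from 2 to 0 for donor against host cortex. That setting ended no other call. As a random block the mouse number moved 1 count by over 1.5 times, BALB/c against C57BL/6 medulla, from 1 to 2, and ended 1 call, that of Eci1 in donor against BALB/c cortex. No filter moved that count to 3. The strict filter tested 26 members, and Acsm5, Pex11a and Ppara were not among them. In the donor regions it tested 5 of the 8 called members and kept all 5. For the donor regional difference it tested 1 of 2, Acsm2, and kept it. For donor against host cortex it tested neither of the 2. A second quantile normalization gave 1 for the donor regional difference, 9 of 16 for donor against BALB/c cortex, 1 for donor against BALB/c medulla, 1 for host against C57BL/6 cortex, 0 for donor against host cortex and 3 for BALB/c against C57BL/6 medulla. Array weights gave 6 for the C57BL/6 regions, 1 for the donor regional difference, 1 for donor against BALB/c medulla, 11 for host against C57BL/6 cortex and 13 for host against C57BL/6 medulla. The fit of only the groups compared, with fewer arrays to estimate the spread, gave 0 for the C57BL/6 regions, 5 for donor against BALB/c cortex, 0 for its medulla, 1 and 12 for host against C57BL/6 cortex and medulla, 0 for donor against host cortex, and 1 and 0 for BALB/c against C57BL/6 cortex and medulla. The cause of these changes in count was not tested. Leaving out single arrays gave 1 to 5 members for the C57BL/6 regions, 0 to 0 for BALB/c, 5 to 7 for donor and 4 to 6 for host, and 1 to 4, 0 to 1 and 0 to 0 for the regional differences of donor against BALB/c, host against C57BL/6 and BALB/c against C57BL/6. It gave 4 to 18 for donor against BALB/c cortex and 0 to 4 for its medulla, 0 to 7 and 4 to 6 for host against C57BL/6 cortex and medulla, 0 to 1 and 0 to 0 for donor against host cortex and medulla, and 2 to 6 and 0 to 4 for BALB/c against C57BL/6 cortex and medulla. Members near background limit low values: Acsm5 passed the signal threshold in 7, Acsm3 in 8, Pex11a in 9, Ppara and Pdk4 in 10, and Acsm2, Pecr and Ehhadh in 14 of the 28 arrays.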

Other observations

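Marker lists given in part above had further calls by limma. Of the 9 resident macrophage markers, 8 were lower in host than in C57BL/6 medulla and 3 in donor than in BALB/c cortex. Of 9 tested conventional dendritic cell markers, 6 were lower in host than in C57BL/6 medulla and 2 in donor than in BALB/c cortex. Of 10 endothelium and fibroblast markers, 1 was higher and 1 lower in donor than in BALB/c cortex, and of 5 tested erythroid and neutrophil markers 2 were lower there.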
